A study of Mus musculus with 15 samples.

Results

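The complement system is described here in mouse liver through 33 of its genes, from the C1q subunits that start the classical pathway to Hc (hemolytic complement, the gene of complement component C5) and the receptors of the C3 and C5 split products. Its members were the 33 named genes whose symbol was printed on the arrays for a non-control probe, and all 33 were found among 22032 gene symbols. They were read by 41 probes on 59 spots, and 26 of the 33 members rested on a single probe each. C1s is an older name in the RefSeq gene table, and the symbols of the other members were current.

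Liver RNA of CD1 male mice was hybridised to 15 single-colour arrays in 3 groups. Group C (after control) was given saline and later the empty plasmid. Mice of group T (after tumor) were given diethylnitrosamine (DEN), a liver carcinogen, and the empty plasmid. Group G (after Gas1) received DEN and pcDNA3/CAG-HAGas1, a plasmid that drives the growth arrest specific gene Gas1 with an HA tag from the ubiquitous CAG promoter. DEN or saline was injected at day 15, and all 3 groups underwent weekly hydrodynamic gene delivery (a rapid tail vein injection that carries plasmid into liver cells, 50 µg of plasmid per the labels) from week 28 to week 34. Livers were taken at week 35, whereas the labels describe 10 week-old mice. The plasmid reached mainly cells near blood vessels. Each RNA came from liver tissue and not from sorted cells, so fewer cells of a type and less RNA per cell cannot be told apart. The study's methods do not say whether tumor nodules or the tissue between them were sampled.

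Complement is a chain of plasma proteins that mark and perforate microbes and damaged cells. The classical, lectin and alternative pathways each assemble an enzyme that cleaves C3, and all of them then cleave C5, whose larger fragment gathers C6, C7, C8 and C9 into the membrane attack complex. Hepatocytes secrete most of the plasma components, whereas C1q, properdin and the ficolins come largely from macrophages and other myeloid cells.

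The 15 arrays were taken to come from 13 mice, which the labels do not state. In the deposited file names, 1 pair of arrays in group C and 1 pair in group T carried the same RNA code. These pairs differed by less than other arrays of their group (SD of the log2 difference 0.145 and 0.142, next closest 0.29 and 0.231). Each of these pairs was counted as 1 mouse, which left 3 mice of group C, 4 of T and 6 of G. Both slides held all 3 groups. Between 15707 and 29765 spots per array were well above background and 0 were saturated. The labels do not name separate animals, so the p-values measure the spread between these RNA samples. Values are log2 intensities after background correction and quantile normalization, errors of group means are SD, and a member was called at an adjusted p under 0.05 in limma over all 22032 genes.

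Of the 33 members, 26 were well above background on every array. All 19 hepatocyte-made members belonged to these, against 4 of the 8 macrophage-made members. C1qb fell below on 1 array of group C, Fcnb, Cfd and Cd55 were above background on some arrays, and the regulator Cd46 and the anaphylatoxin receptors C3ar1 and C5ar1 were above it on none. Differences of the last 3 are differences at background.

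The calls fell on terminal components. Transcripts of Hc and C9 were higher in livers of T than in those of C, the Hc transcript alone was called lower in G than in T, and no member was called between groups G and C. The 2 members called between T and C stand beside 2.37% of all genes called in that comparison (1.18% higher), and the 1 called between G and T beside 0.132% (0.0999% lower). For G against C, 0 members were called by limma, 6 had an unadjusted p under 0.05 (3 higher and 3 lower, beside 6.1% and 7.16% of all genes), and 0.427% of all genes were called. Unadjusted p-values under 0.05 numbered 9 higher and 2 lower from C to T, beside 10.6% and 9.61%, and 2 higher and 7 lower from T to G, beside 4.18% and 6.62%. Hc had been named by the study from these same arrays, so its call is not independent evidence. The study also listed RT-PCR primers for Hc. It reported that the tumor-affected genes it checked by quantitative RT-PCR were all restored after Gas1 transfection. Those measurements were not read here.

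**Figure D1:**
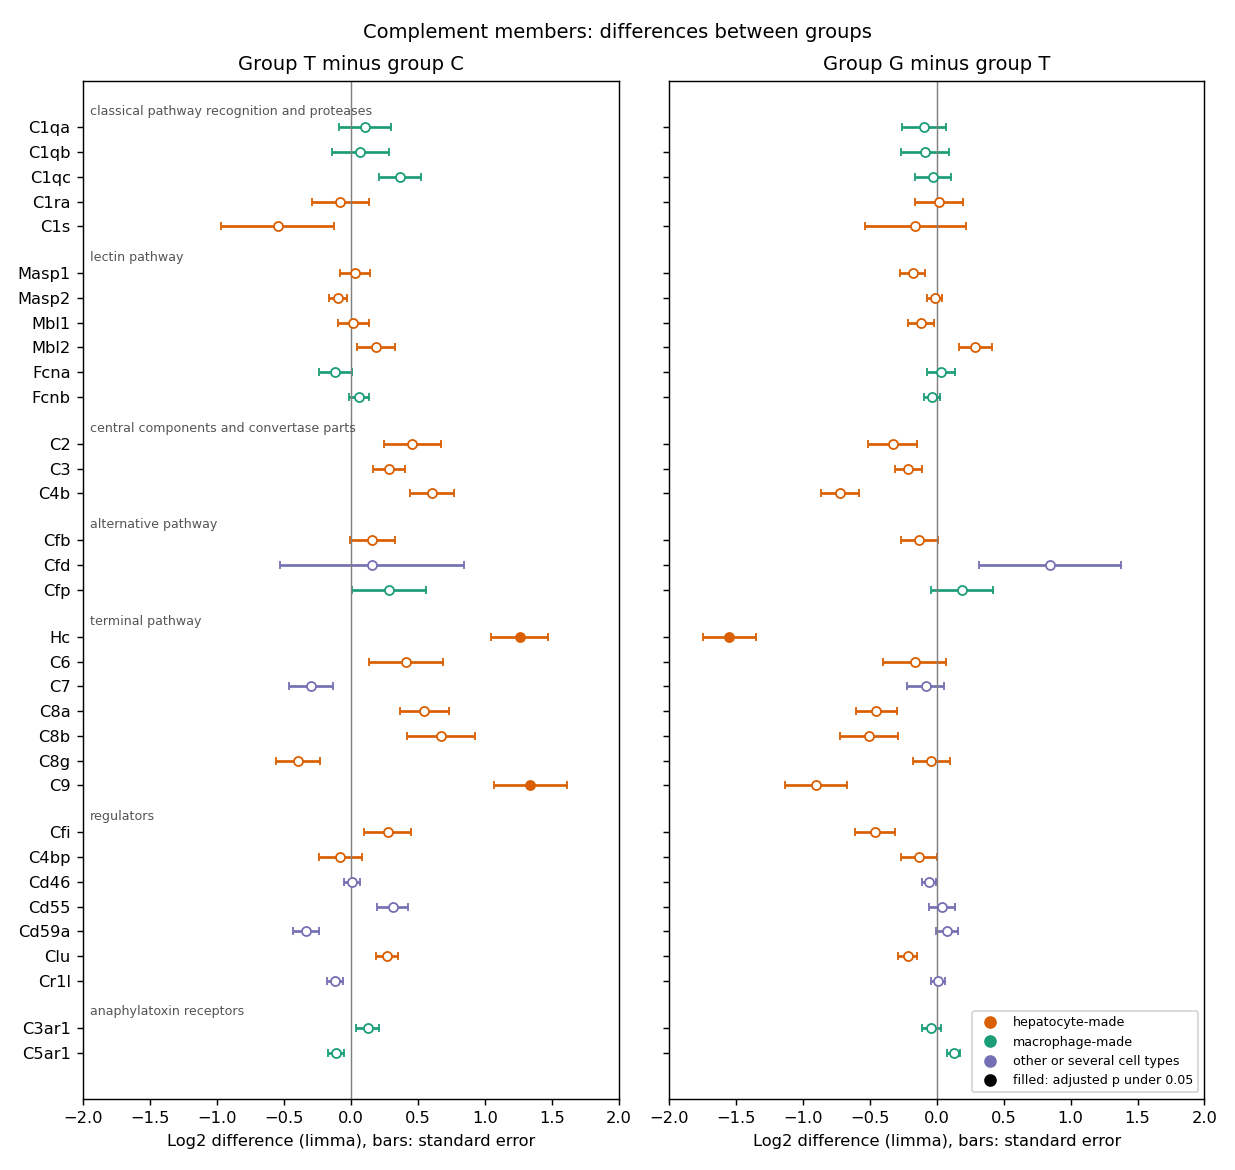
Log2 differences of the 33 members (points, limma) with their standard errors (bars), ordered by role, for group T minus group C on the left and group G minus group T on the right. Colour gives the main cell source and filled points have an adjusted p under 0.05. In the terminal pathway block, Hc and C9 lie furthest to the right at 1.26 and 1.34, and Hc lies furthest to the left in group G at -1.55.

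Hc encodes C5, the precursor of the anaphylatoxin C5a and of C5b, the seed of the membrane attack complex. Its only probe lay on chromosome 2 (mm9, chr2:34838899-34838958, minus strand) at base 5340 of the transcript. The start of this probe, and the promoter with its only match to the motifs searched, are shown because Hc was called in both comparisons. The RefSeq promoter table matched 25 of the 33 members by symbol, and the 250 bases before the transcript start of Hc (GRCm38.p6, chr2:35061413-35061662, minus strand) are printed with the motif match in capitals.
Hc probe, first 30 bases: gccggaagaagagacccactgaaactgtag
Hc promoter: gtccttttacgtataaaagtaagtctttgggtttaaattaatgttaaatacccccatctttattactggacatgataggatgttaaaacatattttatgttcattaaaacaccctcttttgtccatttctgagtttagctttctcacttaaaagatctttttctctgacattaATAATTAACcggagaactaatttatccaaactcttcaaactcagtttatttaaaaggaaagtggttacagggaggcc

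The capitals mark the HNF1 motif GTTAATNAT on the opposite strand, 77 to 69 bases before the start. HNF1 is a liver transcription factor, and this motif, searched on both strands, was present in 0.737% of 32851 promoters and in 2 of the 25 members with a promoter, Hc and C4bp. For each motif a member was counted if any of its promoters matched, so counts of members and shares of promoters are in unlike units. A match of letters is a description and not a binding site.

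In group C the Hc level was 12.4, 12.95 and 13.43 in mice 1 to 3. In group T it was 14.18, 14.16 and 14.23 in mice 2 to 4, and in group G it was 12.47, 12.59, 12.88 and 12.65 in mice 1, 2, 3 and 6. The spots of mouse 1 of group T, of mice 4 and 5 of group G and of 1 of the 2 arrays of mouse 3 of group C carried an outlier flag and were left missing in the fit.

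Every measured mouse of group T stood above every mouse of groups C and G, and groups C and G overlapped. Group means were 12.93 ± 0.514 (SD, n = 3) in C, 14.19 ± 0.0348 (n = 3) in T and 12.64 ± 0.172 (n = 4) in G. Hc thus rose by 1.26 on the log2 scale (SE 0.212, 2.4-fold, adjusted p = 0.0221, limma) from C to T and fell by 1.55 (SE 0.198, adjusted p = 0.0356) from T to G, to 0.343 of the level. Group G differed from group C by -0.28 (SE 0.198, adjusted p = 0.598), and by 0.47 with median scaling of the arrays.

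The flags on Hc concerned the local background and not the spot itself. On the flagged arrays the background was 28.5 to 34 intensity units and the spot 8762 to 18800, and no Hc spot carried a flag on its own signal. With these spots kept, mouse 1 of group T had 14.09 and mice 4 and 5 of group G had 13.05 and 12.69. Group T (14.16 ± 0.0584, n = 4) then still lay above every mouse of group G (12.72 ± 0.21, n = 6) and of group C (12.91 ± 0.493, n = 3).

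Hc was called in both comparisons with flagged spots missing and with them kept (1.25, adjusted p = 0.0107, and -1.44, adjusted p = 0.00327, limma). The choice changed how often a call was lost on leaving out 1 mouse. With flagged spots missing, leaving out mouse 2 of group C or mice 2, 3 or 4 of group T ended the call between T and C (adjusted p 0.0588 to 0.073), and the call between G and T was lost on leaving out any of 9 mice (mouse 2 of C, mice 2, 3 and 4 of T, mice 1, 2, 3, 5 and 6 of G). Mouse 5 of G had no Hc value in this fit. Without it, 4 of 22032 genes were called from T to G, against 29 in the full fit. Over the mice left out, the Hc difference from T to G stayed between -1.62 and -1.49. With flagged spots kept, both calls held on leaving out each of the 13 mice (a combination added after the data were seen), with adjusted p from 0.00334 to 0.0377 for T against C and from 0.000439 to 0.0249 for G against T. Within slide 1 the difference was 1.25 (T against C) and -1.44 (G against T), and within slide 2 it was 1.28 and -1.67, with adjusted p of 0.0747 to 0.239.

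**Figure D2:**
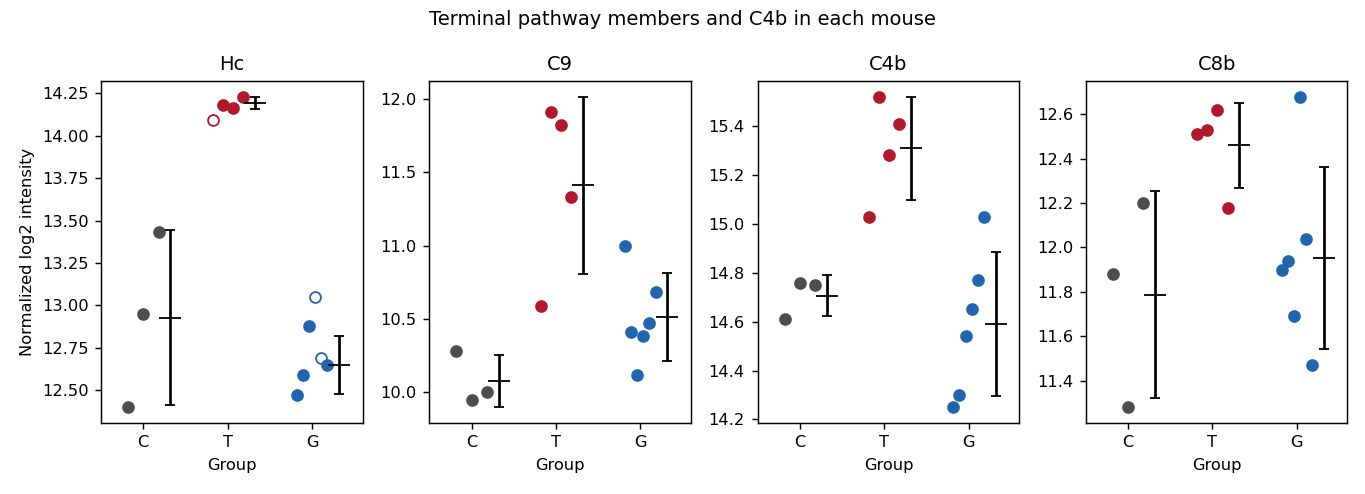
Normalized log2 intensity (vertical axes, each with its own range) of Hc, C9, C4b and C8b in each mouse of groups C, T and G. Points are mice, open points are Hc spots with a background flag that the fit left missing, and the line with bars is the mean ± SD of the filled points. The Hc points of group T lie between 14.09 and 14.23, above all points of the other groups.

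C9, the component that polymerises into the membrane pore, had 1 probe on chromosome 15 (mm9, chr15:6433127-6433186, plus strand). The probe and the 250 bases before the C9 start (GRCm38.p6, chr15:6445096-6445345, plus strand) are shown because C9 was the other member called. Here the capitals mark the C/EBP motif TTGCNNAA, 132 to 125 bases before the start.
C9 probe: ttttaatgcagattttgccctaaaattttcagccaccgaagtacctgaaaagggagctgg
C9 promoter: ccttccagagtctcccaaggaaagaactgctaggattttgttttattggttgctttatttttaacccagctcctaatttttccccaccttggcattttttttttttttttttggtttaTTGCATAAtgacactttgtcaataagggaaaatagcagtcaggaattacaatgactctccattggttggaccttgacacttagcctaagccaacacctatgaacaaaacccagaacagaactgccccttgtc

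C/EBP proteins are liver transcription factors. The motif was present in 9.56% of the promoters searched and in 3 members with a promoter (Fcnb, C3 and C9). The STAT motif TTCNNNGAA, which neither Hc nor C9 held, was present in 7.02% of promoters and in 3 members (Masp2, C7 and C8a).

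C9 was 10.28, 9.947 and 10 in group C, and 10.59, 11.91, 11.82 and 11.33 in mice 1 to 4 of group T. In group G it ranged from 10.12 to 11, with mouse 1 highest. All mice of group T lay above all mice of group C, whereas mouse 1 of group T lay inside the range of group G. C9 rose by 1.34 (SE 0.275, 2.53-fold, adjusted p = 0.0301, limma) from C to T, and the difference from T to G was -0.90 (SE 0.233, adjusted p = 0.148).

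Among the mice left out in turn, mouse 1 of group T gave the largest difference of C9 from C to T, 1.61, and a call between G and T (-1.18, adjusted p = 0.0186). The call of C9 between T and C was lost on leaving out any mouse of group C or mouse 2, 3 or 4 of group T (adjusted p 0.0592 to 0.0879). The difference was 1.69 within slide 1 and 1.05 within slide 2.

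C8a and C8b, which encode chains of C8, lie beside each other on chromosome 4 (mm9 probe positions 104488479 to 104499334 and 104477094 to 104477153). C8b was 11.88, 11.28 and 12.2 in group C and 12.51, 12.53, 12.62 and 12.18 in group T, and group G ranged from 11.47 to 12.68. The groups overlapped in each comparison, with a difference of 0.68 from C to T (SE 0.255, adjusted p = 0.165) and -0.51 from T to G (adjusted p = 0.418). C8a was 10.41, 10.35 and 10.41 in group C and 10.59 to 11.41 in group T without overlap, a difference of 0.55 (SE 0.182, adjusted p = 0.122).

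C8g, the third chain of C8, is a lipocalin gene on chromosome 2. Its difference from C to T was -0.40 (SE 0.164, adjusted p = 0.197), and its 2 probes gave -0.62 and -0.18. The probe with the larger difference lay at base 352 of the transcript and the other at base 978. C6 differed by 0.41 (adjusted p = 0.451) and C7, which other liver cells also make, by -0.30 (adjusted p = 0.348).

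Of the 7 terminal members, 5 lay above zero from C to T and all 7 lay below zero from T to G, with medians of 0.55 and -0.45. Over all genes tested the medians were 0.01 and -0.01. Called members numbered 2 in the first comparison and 1 in the second, beside 2.37% and 0.132% of all genes.

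C4b, C2 and C3 supply the convertases, the enzymes that cleave C3 and C5. C4b (mm9, chr17:34865328-34865387, minus strand) was 14.61, 14.76 and 14.75 in group C and 15.03, 15.52, 15.28 and 15.41 in group T. In group G it was 14.25, 14.3, 14.54, 14.65, 14.77 and 15.03. Group T lay above group C, and the highest mouse of group G came level with the lowest of group T at 15.03.

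The difference of C4b was 0.60 from C to T (SE 0.166, 1.52-fold, adjusted p = 0.0711) and -0.72 from T to G (SE 0.141, adjusted p = 0.0788), so neither passed the threshold. It did pass with slide as a term in the fit (adjusted p = 0.0423 and 0.0372) and on leaving out mouse 1 of group T or mouse 6 of group G, among other settings. Mouse C4b has a close paralog, C4a, and whether the probe tells them apart was not tested.

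C3, the component on which the 3 pathways converge (its values, like those of C8a, Clu and Cd59a, are given outside the naming rule and were chosen after they were seen), was 16.66, 16.78 and 16.75 in group C and 16.92, 17.37, 16.88 and 16.88 in group T, which did not overlap. Mouse 2 of group T stood apart from the rest of its group. The difference was 0.28 (SE 0.119, adjusted p = 0.209), and -0.21 from T to G (adjusted p = 0.472). C2, which forms the classical convertase with C4, differed by 0.46 (adjusted p = 0.257) and -0.33 (adjusted p = 0.549).

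Mouse 2 of group T also carried the highest level of the acute phase response, the hepatocyte secretory programme of inflammation to which several complement genes belong. Over 22 acute phase genes its median lay 1.85 above group C, against 0.15, 0.22 and 0.35 in mice 1, 3 and 4 of group T. None of the 22 was called by limma in either comparison (9 had an unadjusted p under 0.05 from C to T, all higher, and 16 from T to G, all lower), and their mean level was 11.15 to 11.54 in group C, 11.46 to 14.17 in group T and 10.99 to 11.13 in group G. Without mouse 2 of group T the difference was 1.27 for Hc and 1.17 for C9 (adjusted p = 0.0588 and 0.0686), and the part of the acute phase response in these differences was not tested.

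In the alternative pathway, Cfb, the gene of factor B, differed by 0.16 from C to T and by -0.13 from T to G, with overlapping mice. Cfp, which encodes properdin, the stabiliser of the alternative convertase, was 8.648, 7.715 and 8.466 in group C and 8.22 to 8.768 in group T. In group G it was 8.278 to 9.295, and mice 4, 5 and 6 held its highest values. Its difference from C to G was 0.47 (SE 0.256, adjusted p = 0.463), and it was 0.78 within slide 1 and 0.07 within slide 2.

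Cfd (factor D, also called adipsin), which adipocytes make in large amounts, is outside the naming rule and was chosen after its values were seen. It lay between 5.978 and 6.535 in the measured mice of groups C and T, but was 7.674 in mouse 4 and 9.183 in mouse 6 of group G. The other measured mice of group G held 6.138, 6.177 and 6.756. With flagged spots kept, mouse 2 of group C had 6.724 and mouse 5 of group G had 6.638. The group difference from C was 1 (SE 0.664, adjusted p = 0.568). The adipocyte hormone gene Adipoq was 6.693 in mouse 6 and 6.512 in mouse 4 of group G, near 6.362 and 6.411 in 2 mice of group C, and it was above background on 2 arrays each of groups C and G and on 0 of group T. The remaining adipocyte markers did not stand out in these mice. Plin1 was 6.103 in mouse 4 and 5.995 in mouse 6 of group G, against 6.009 to 6.147 in group C. Lep was 5.883 and 5.931, against 5.904 to 6.003. Plin1 was above background on 1 array and Lep on 0. Of the 4 adipocyte markers, Cfd included, 0 were called by limma and 0 had an unadjusted p under 0.05, and the part of adipose tissue in the Cfd values was not tested.

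The recognition molecules and proteases of the classical pathway gave no call. C1qa, C1qb and C1qc, which lie together on chromosome 4 and are made mainly by macrophages, differed from C to T by 0.10, 0.07 and 0.37 (adjusted p = 0.823, 0.903 and 0.218). Mice of the groups overlapped for each of them in every comparison. C1s, the effector protease of C1, was 12.17, 11.76 and 12.23 in group C, 12.17, 10.78 and 11.57 in the measured mice of group T and 10.32 to 12.06 in group G.

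C1s had the largest difference between G and C among the detected members, -0.71 (SE 0.379, adjusted p = 0.464, and 0.08 with median scaling), yet its groups overlapped and its lowest mice were mouse 6 of G and mouse 3 of T. C1ra, its partner protease on chromosome 6, differed by -0.08 from C to T and 0.02 from T to G.

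In the lectin pathway Mbl2, a mannose-binding lectin, was the only member whose mice of group G lay above all mice of group C. It was 14.85, 14.94 and 14.83 in group C, 14.71 to 15.29 in group T and 15.01 to 15.62 in group G. The difference from C to G was 0.47 (SE 0.137, adjusted p = 0.164). Mbl1, Masp1 and Masp2 differed by 0.10 or less from C to T in either direction, with adjusted p from 0.451 to 0.961.

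Among the regulators none was called in the fit of 13 mice. Clu (clusterin), which binds the assembling terminal complex in plasma, differed by 0.27 from C to T (SE 0.0855, adjusted p = 0.108) and by -0.22 from T to G (adjusted p = 0.284), and group T lay above group C. Cd59a, the membrane inhibitor of C9 insertion, lay lower in all mice of group T (9.631 to 10.02) than of group C (10.07 to 10.23), with a difference of -0.34 (adjusted p = 0.0865). It was called lower with slide as a term, with all arrays as separate mice and without mouse 1 of group T. Cfi, the protease that inactivates C3b and C4b, differed by 0.28 and -0.46 (adjusted p = 0.426 and 0.267), and C4bp, its cofactor, by -0.08 and -0.13.

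**Figure D3:**
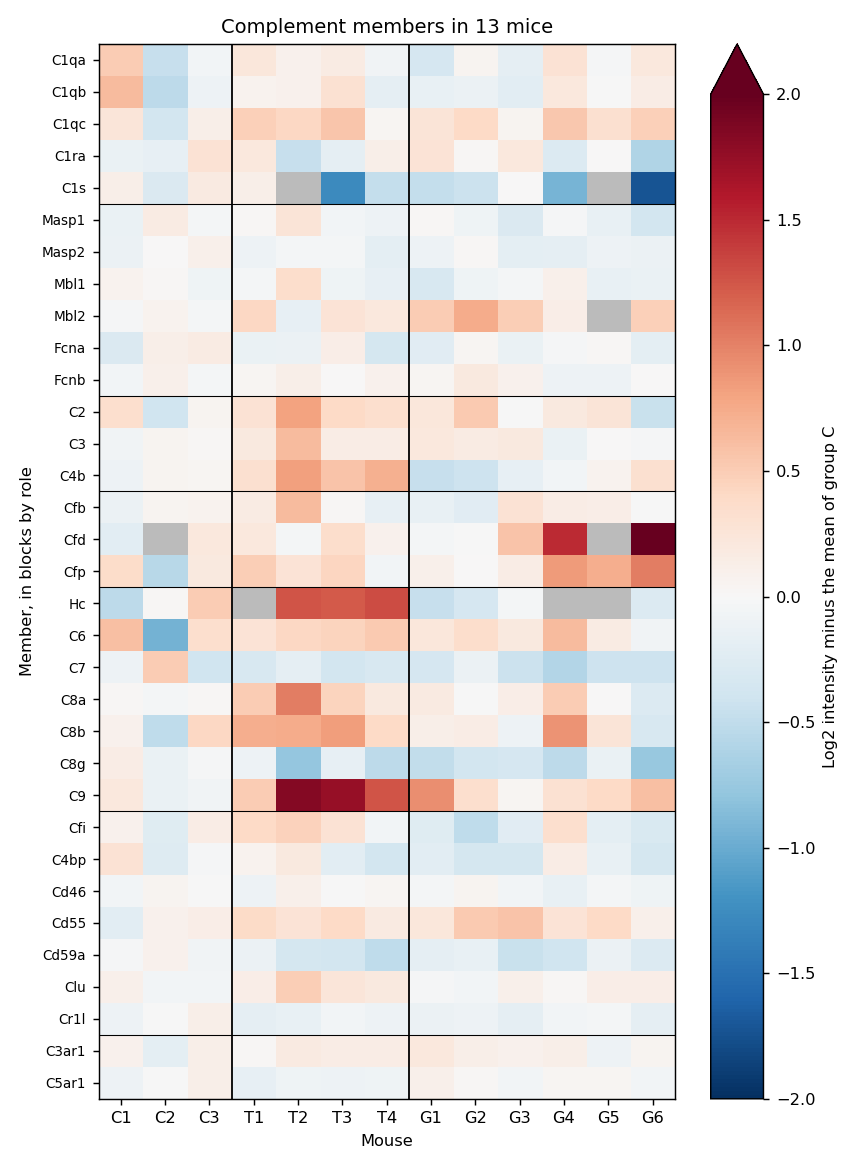
Log2 intensity of each member (rows, in blocks by role from the classical pathway at the top to the receptors at the bottom) minus its mean in group C, for the 13 mice (columns, named by group letter and number). Grey cells are missing and colours saturate at 2. The Hc cells are red in the 3 measured mice of group T and blue or near white in the measured mice of group G, whereas for C8a, C8b and C9 some mice of group G reach the lowest mouse of group T or exceed it (mouse 4 for C8a and C8b, mice 1 and 6 for C9).

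From C to T, 7 of the 33 members had all mice of group T above all mice of group C (C3, C4b, Hc, C8a, C9, Cd55 and Clu) and 1 had them below (Cd59a), beside 10.3% and 8.72% of all genes. From T to G, 2 members were separated downwards (Hc, and C4b by less than the rounding) beside 2% of all genes. The receptor C5ar1, not above background on any array, was the 1 separated upwards, beside 1.1%. From C to G, Mbl2 was separated upwards and C8g and Cd59a downwards, beside 2.83% and 3.12%. Cd55, an inhibitor of the C3 convertases, was above background on 2 of the 4 arrays of group C.

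Hepatocyte-made and macrophage-made members were then set side by side. Of the 19 hepatocyte-made members, 14 lay above zero and 5 below from C to T, 2 were called higher and the median was 0.27. From T to G, 17 lay below and 2 above zero, 1 was called lower and the median was -0.18. Over all 22032 genes, 11410 lay above zero from C to T and 1.18% were called higher. In the comparison of G with T, 11853 lay below zero and 0.0999% were called lower. Of the 8 macrophage-made members 0 were called by limma in any comparison (1 had an unadjusted p under 0.05 in each), with medians of 0.09 and -0.03. A difference between the lists was not tested.

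By mouse, the median distance of the 19 hepatocyte-made members from the group C mean was -0.05 to 0.07 in group C, 0.15 to 0.48 in group T and -0.28 to 0.12 in group G. All mice of group T thus lay above all others, with mouse 2 highest. For the macrophage-made members the ranges overlapped, at -0.29 to 0.16 in group C, -0.06 to 0.15 in group T and -0.000415 to 0.16 in group G. Mouse 2 of group C was the lowest, and without it the macrophage-made median from C to T was -0.03 in place of 0.09, and 0.26 without mouse 1 of group C.

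The median of the hepatocyte-made members was 0.34 within slide 1 and 0.08 within slide 2 from C to T, and -0.28 and -0.10 from T to G. The scaling of the arrays moved it further. With median scaling the median of all genes from C to T was 0.12, the hepatocyte-made median exceeded it by 1.15 and 13 members were called, all higher, beside 13.1% of all genes. With the processed signal scaled to the 75th percentile the median of all genes was -0.40, the hepatocyte-made median exceeded it by 0.78 and 0 members were called, beside 0.259% of all genes. The macrophage-made median also exceeded the median of all genes, by 0.285 with median scaling and by 0.473 with the processed signal.

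**Figure D4:**
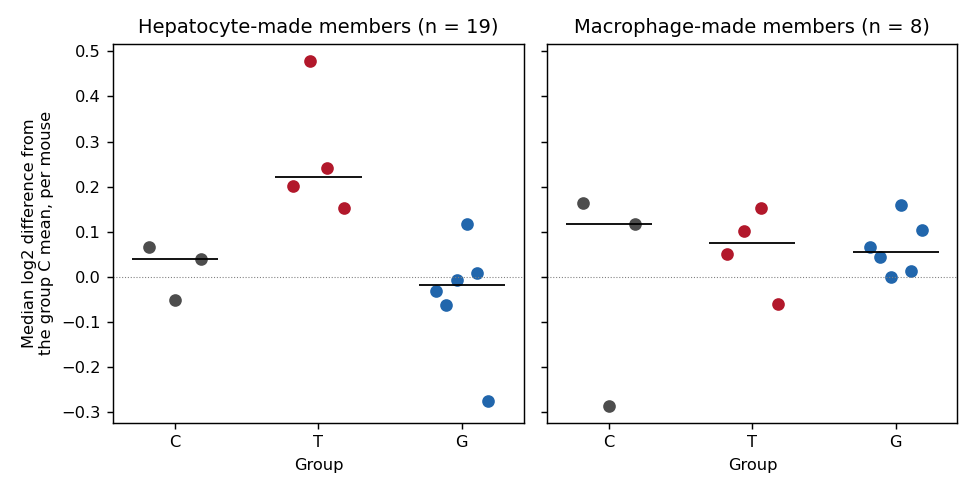
Median log2 difference from the group C mean (vertical axis) over the 19 hepatocyte-made members on the left and the 8 macrophage-made members on the right, for each mouse of groups C, T and G. Points are mice and lines are group medians. The 4 mice of group T lie at 0.15 to 0.48 in the left panel, above all other mice, and among the other groups in the right panel.

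Cell type markers were read in the same arrays. Of 10 hepatocyte markers, Ttr (transthyretin) was called lower by limma in T than in C (-1, adjusted p = 0.00425) and the other 9 were not called. For the 9 of the 10 with a value in every mouse, Ttr included, the mean was 14.65 to 14.77 in C, 14.6 to 14.81 in T and 14.62 to 14.91 in G. Of 11 Kupffer cell and macrophage markers, Emr1, a macrophage surface receptor gene, was called higher by limma in T than in C (0.31, adjusted p = 0.0267). Emr1 was above background on only 2 of the 4 arrays of group C, and on all arrays of T and G. From C to T, 3 genes of the list had an unadjusted p under 0.05 with a higher value and 1 with a lower value. For the 9 genes of the list with a value in every mouse, the mean was 7.177 to 7.35 in C, 7.331 to 7.498 in T and 7.279 to 7.66 in G. The Kupffer cell gene Clec4f was above background on every array, Cd163 on none and Timd4 on 1. Neutrophil and endothelial lists had 0 genes called by limma from C to T (2 and 1 with an unadjusted p under 0.05, higher). Of 8 stellate cell and fibroblast markers 0 were called by limma, but all 8 lay below zero from C to T (median -0.30, 3 with an unadjusted p under 0.05) and 7 above zero from T to G (median 0.25, 3 with an unadjusted p under 0.05). A different 7 of the 8 had a value in every mouse, and their mean level was 6.758 to 7.196 in C, 6.611 to 6.881 in T and 6.73 to 7.232 in G. The marker left out of this mean had the largest difference of the list in both comparisons (-0.825 and 0.634). The part of cell composition in the complement values was not tested.

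Other genes of the system were read through a list of 25 measured genes, of which 0 were called by limma in any comparison. From C to T, 6 had an unadjusted p under 0.05 with a higher and 4 with a lower value, from T to G 0 and 4, and from C to G 4 and 2. Susd4, which encodes a complement-inhibiting sushi domain protein, had the largest differences, 0.98 from C to T (adjusted p = 0.182) and -1.14 from T to G (adjusted p = 0.202), the latter without overlap. Colec11, a collectin of the lectin pathway, differed by -0.72 from C to T (adjusted p = 0.142).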

How the data were processed

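The authors deposited 1 scanner output of Agilent Feature Extraction 10.7.3.1 per array, with spot intensity, local background intensity, a processed signal and flags, plus a table of log2 values that they had corrected by normexp and quantile normalized, per the study's methods. Probe positions in the file headers are on mm9. From the deposited intensities, normexp (offset 50) and quantile normalization were applied to the 59305 non-control of 62976 spots in R 4.3.3 with limma 3.58.1. The result differed from the authors' deposited log2 table by a median of 0.00268.

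Spots with an outlier flag were set missing after normalization (218 to 3692 per array). Of 885 member spots, 20 were flagged, 18 for the local background only. Spots of a probe were averaged, probes of a gene were centred and averaged, and arrays of 1 RNA were averaged into 1 mouse. Groups were taken from the labels. A single limma fit over 3 groups and 13 mice gave 3 contrasts, with Benjamini-Hochberg adjustment over 22032 genes. The fit was tested on simulated data. The number of arrays limits the precision. The main cell source of each member was assigned from general knowledge.

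Members and lists were chosen with earlier results of these data known. Values by mouse are given for Hc, for members called in any contrast and, per contrast, for the 3 detected members with the largest absolute difference, and other members with such values are said to be outside this rule. In other lists, called genes are named. Of the other complement genes, the 2 detected genes with the largest difference from C to T are named. Adipoq, Plin1, Lep, Clec4f, Cd163 and Timd4 are named outside this rule, and no gene of the acute phase, neutrophil, endothelial and stellate cell lists is named. Alternatives changed the scaling, offset, flags, probe rule, test, slide, block and mice. A plain t-test with a pooled variance, Benjamini-Hochberg adjusted, was among them. For its arrays the study named the multtest package, which was not run here. Motifs were searched in RefSeq promoters of GRCm38.p6. Protein sequences were not used here.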

Additional observations from a re-analysis of the deposited data

Results flagged for a closer look

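In 64 sets of a member and a group with 4 to 6 measured mice, 2 held a mouse far from the others (gap to the nearest mouse over the range of the group, Dixon's 95% limit), and chance alone gives about 1 in 20. C3 in mouse 2 of group T was 17.37, with the nearest mouse at 16.92 and a gap of 0.917 of the range (n = 4). Cfi in mouse 4 of group G was 13.52, with the nearest at 12.99 and a gap of 0.628 (n = 6).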

How the results depend on the processing

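Each value was recomputed under 30 alternatives. Members called were 2 (T against C) and 1 (G against T). They became 0 and 0 with the processed signal, within slide 1, within slide 2 and by the plain t-test (beside at most 0.259% and 0.0318% of all genes). With median scaling they were 13 and 0 (beside 13.1% and 0.0363%). They were 5 and 3 with all arrays as separate mice (beside 8.85% and 1.22%), and 4 and 2 with slide as a term (beside 3.69% and 0.34%). With dim probes left out 2 were called in G against T (beside 0.463%). In fits of only the 2 groups compared 1 was called in T against C (beside 1.63%). Leaving out each mouse gave 0 to 4 for T against C (beside 0.431% to 3.39%) and 0 to 3 for G against T (beside 0.0182% to 0.531%). No alternative called a member in G against C. Fits within a slide held fewer arrays, and fits without a mouse held fewer mice. The cause of these changes was not tested.

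Hc kept its direction in all 30 alternatives for T against C (1 to 2.39, call lost in 10) and G against T (-1.92 to -1.35, lost in 15). For T against C it was 1.53 with the processed signal, 1.25 and 1.28 within slides 1 and 2, and 1.26 with only the 2 groups and by the plain t-test (adjusted p = 0.056, 0.0747, 0.131, 0.0531 and 0.19). For G against T it was -1.86 with the processed signal, -1.92 with median scaling, -1.44 and -1.67 within slides, and -1.55 by the plain t-test (adjusted p = 0.106, 0.542, 0.0968, 0.239 and 0.0763). Leaving out each mouse gave 1.00 to 1.51 and -1.62 to -1.49, and with flagged spots kept as well 0.997 to 1.49 and -1.51 to -1.39. For G against C, median scaling reversed Hc to 0.47 and C1s to 0.0834, and leaving out each mouse gave -0.55 to -0.03 for Hc.

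The hepatocyte-made median was 0.38 (T against C) and -0.39 (G against T) with the processed signal, 1.27 and -0.45 with median scaling, and 0.0799 within slide 2 for T against C. The macrophage-made median was 0.41 with median scaling for T against C and 0.12 within slide 1 for G against T. Leaving out each mouse gave 0.19 to 0.29 and -0.24 to -0.14 for hepatocyte-made members, and -0.03 to 0.26 and -0.04 to 0.01 for macrophage-made ones.

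Of 10 pairs of mice with the same replicate number, 4 had correlated deviations over 0.1 (range -0.31 to 0.25). Pairs with different numbers were not compared, so whether the replicate numbers pair the mice was not settled. With the number as a replicate block, 1 member was called in T against C (C4b, beside 1.26% of all genes). Hc was then 1.07 and -1.35 (adjusted p = 0.062 and 0.119). In G against T the block called C4b (-0.88, adjusted p = 0.0337, beside 0.0272% of all genes).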
